A study of Mus musculus with 8 samples.

Results

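Genes of translation initiation were followed in peripheral blood mononuclear cells of mice given fucoidan or saline. The set held every protein-coding row of the gene count table whose symbol begins with Eif and a digit, except Eif2ak2, which gave 72 of 56748 genes. Male wild-type C57BL/6J mice, adult at 8 weeks, received by daily oral gavage for 1 month either fucoidan of the brown seaweed Undaria pinnatifida at 200 mg per kg per day (3 libraries) or an equal volume of saline (5 libraries). Both groups ate the same basal diet, and mononuclear cells were obtained from heart blood with a density gradient for sequencing of poly(A) RNA. Each library is titled as a biological replicate, all carry 1 batch label, and no source states that a library came from 1 animal, so the p-values measure the spread between these samples.

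Translation initiation loads a methionine-carrying initiator tRNA onto the small ribosomal subunit, brings the subunit to the capped end of an mRNA and lets it scan to a start codon. eIF2 carries the tRNA, eIF3 and eIF1 hold the scanning subunit, eIF4F (the cap-binding eIF4E, the scaffold eIF4G and the helicase eIF4A) recruits the mRNA, and eIF5 triggers the hydrolysis of GTP on eIF2 at the start codon. Initiation is held back at 2 points: kinases that phosphorylate eIF2 and thereby block its exchange factor eIF2B, and small proteins that bind eIF4E and keep eIF4G away. Of the eIF2 kinases, HRI (Eif2ak1) is known as the haem-regulated kinase of red cell precursors, which matches globin synthesis to the supply of haem, PERK (Eif2ak3) senses unfolded protein in the endoplasmic reticulum, and GCN2 (Eif2ak4) senses a lack of amino acids.

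The promoter stretches of the 4 called members that had 1 window in the RefSeq table of build GRCm38.p6 are shown first, because these genes carry the differences described below. Each is the 150 bases before the annotated start of the gene, 5′ to 3′ on the plus strand, with the letters CACGTG (the E-box of MYC and MAX) and CCGGAAG (an ETS site) in capitals. The stretches lie at chr12:111537951-111538100, chr5:143817642-143817791, chr3:28781127-28781276 and chrY:1010445-1010594, in the order shown.
Eif5: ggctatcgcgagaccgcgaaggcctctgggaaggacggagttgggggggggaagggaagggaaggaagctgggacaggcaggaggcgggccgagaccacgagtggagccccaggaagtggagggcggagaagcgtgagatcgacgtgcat
Eif2ak1: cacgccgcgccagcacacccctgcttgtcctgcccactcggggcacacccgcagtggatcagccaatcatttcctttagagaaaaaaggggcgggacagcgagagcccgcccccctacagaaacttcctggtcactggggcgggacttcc
Eif5a2: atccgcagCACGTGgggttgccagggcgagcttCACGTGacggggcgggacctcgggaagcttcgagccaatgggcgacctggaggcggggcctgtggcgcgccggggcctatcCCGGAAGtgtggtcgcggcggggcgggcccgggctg
Eif2s3y: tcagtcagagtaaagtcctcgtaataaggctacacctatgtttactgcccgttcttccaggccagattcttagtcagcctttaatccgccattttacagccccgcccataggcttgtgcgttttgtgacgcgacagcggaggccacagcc

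Of these 4 stretches, that of Eif5a2 held CACGTG at 142 and 117 bases before the start and CCGGAAG at 36 bases before it, and the other 3 held neither. These and other motifs, 6 in all, were searched on both strands in windows of 250 bases before to 50 after a start, which 42 of the 53 tested members had, in 55 windows. CACGTG stood in 21.8% of the member windows, against 7.15% of all 32851 windows. Those 32851 windows were not limited to tested genes, as the member windows were, and the share over windows of tested genes was not taken. CCGGAAG stood in 34.5% of member windows and 8.86% of all windows, and the YY1 element AAGATGGCG in 3.64% and 1.40%. The ATF4 element TGATGNAA and the GATA site AGATAA stood in 1.82% of member windows each, against 3.97% and 11.2% of all windows, and TATAAA in 7.27% against 13.6%. Beyond the stretches shown, the window of Eif5a2 held another CCGGAAG 164 bases before the start. That of Eif2ak1 held CCGGAAG on the minus strand, at bases 17 to 23 after the start. That of Eif2s3y held AAGATGGCG at bases 20 to 28 after the start and, on the minus strand, TATAAA 197 bases before it. No match overlapped another in the stretches shown, windows of the same gene overlap in part, and a match describes letters only.

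Total counts ran from 13061703 to 16334932 per library. Haemoglobin transcripts took 13.6% to 24.1% of counts in the fucoidan libraries and 3.51% to 8.48% in the saline libraries, with the highest share in fucoidan replicate 3. Among 22 tested erythroid markers 21 rose with fucoidan, and their summed level was 160388 to 382401 CPM (counts scaled to a common library size with TMM factors) against 32982 to 91214 CPM after saline. Platelet markers rose in 16 of 17 cases (9819 to 20876 CPM against 3393 to 6997 CPM in sum), natural killer markers in 15 of 15 (1649 to 1926 CPM against 582 to 962 CPM), and B cell markers fell in 14 of 15 (3572 to 5029 CPM against 6085 to 7754 CPM). Of the T cell markers 5 of 20 rose and 1 fell, of the monocyte markers 2 of 16 rose, and of 14 neutrophil markers 0 were called. The defining markers of mononuclear cells (Ptprc, Cd3e, Cd79a, Ms4a1, Ncr1 and Csf1r) were all present, at 2663 to 3219 CPM in sum against 3192 to 3811 CPM. In such bulk samples, fewer cells of a type and less RNA per cell cannot be told apart.

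Most initiation factors lay close to their level in saline libraries. After the filter on low counts 53 members were tested, of which 4 rose with fucoidan, 2 fell and 47 stayed above an adjusted p of 0.05 in the quasi-likelihood test of edgeR. That is 11.3% of the tested members, near the 13.8% of all 14723 genes called in either direction (9.11% higher and 4.65% lower). The groups did not overlap for 11 members, or 20.8%, against 22.6% of all genes. The median log2 fold change of the members was -0.06, that of all genes -0.04, and 43 members lay within 0.25 of 0 on the log2 scale. Members together took 0.631% to 0.780% of counts in fucoidan libraries and 0.841% to 0.914% in saline libraries. With haemoglobin counts left out of the total these shares were 0.831% to 0.909% and 0.894% to 0.947%, which overlap. On the TMM-scaled CPM used below the direction was the other way. The members summed to 8206 to 9065 CPM in fucoidan libraries and 7505 to 8252 CPM in saline libraries, which also overlap. The TMM factor was 0.697 in fucoidan replicate 3, 0.916 and 0.944 in fucoidan replicates 1 and 2, and 1.02 to 1.17 in saline libraries.

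Of the called members, Eif5, Eif4ebp1, Eif5a2 and Eif2ak1 rose with fucoidan, Eif2s3y and Eif2ak4 fell, and every core subunit of eIF2B, eIF3 and eIF4F stayed without a call. The members also varied little within a group: among 50 members with a mean of at least 10 CPM the median coefficient of variation was 7.58% in fucoidan libraries and 9.98% in saline libraries, against 9.88% and 12.5% for the 8725 genes with at least that mean. Levels above 10 CPM were not matched between the members and all genes, and the part of level in this difference was not tested.

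**Figure D1:**
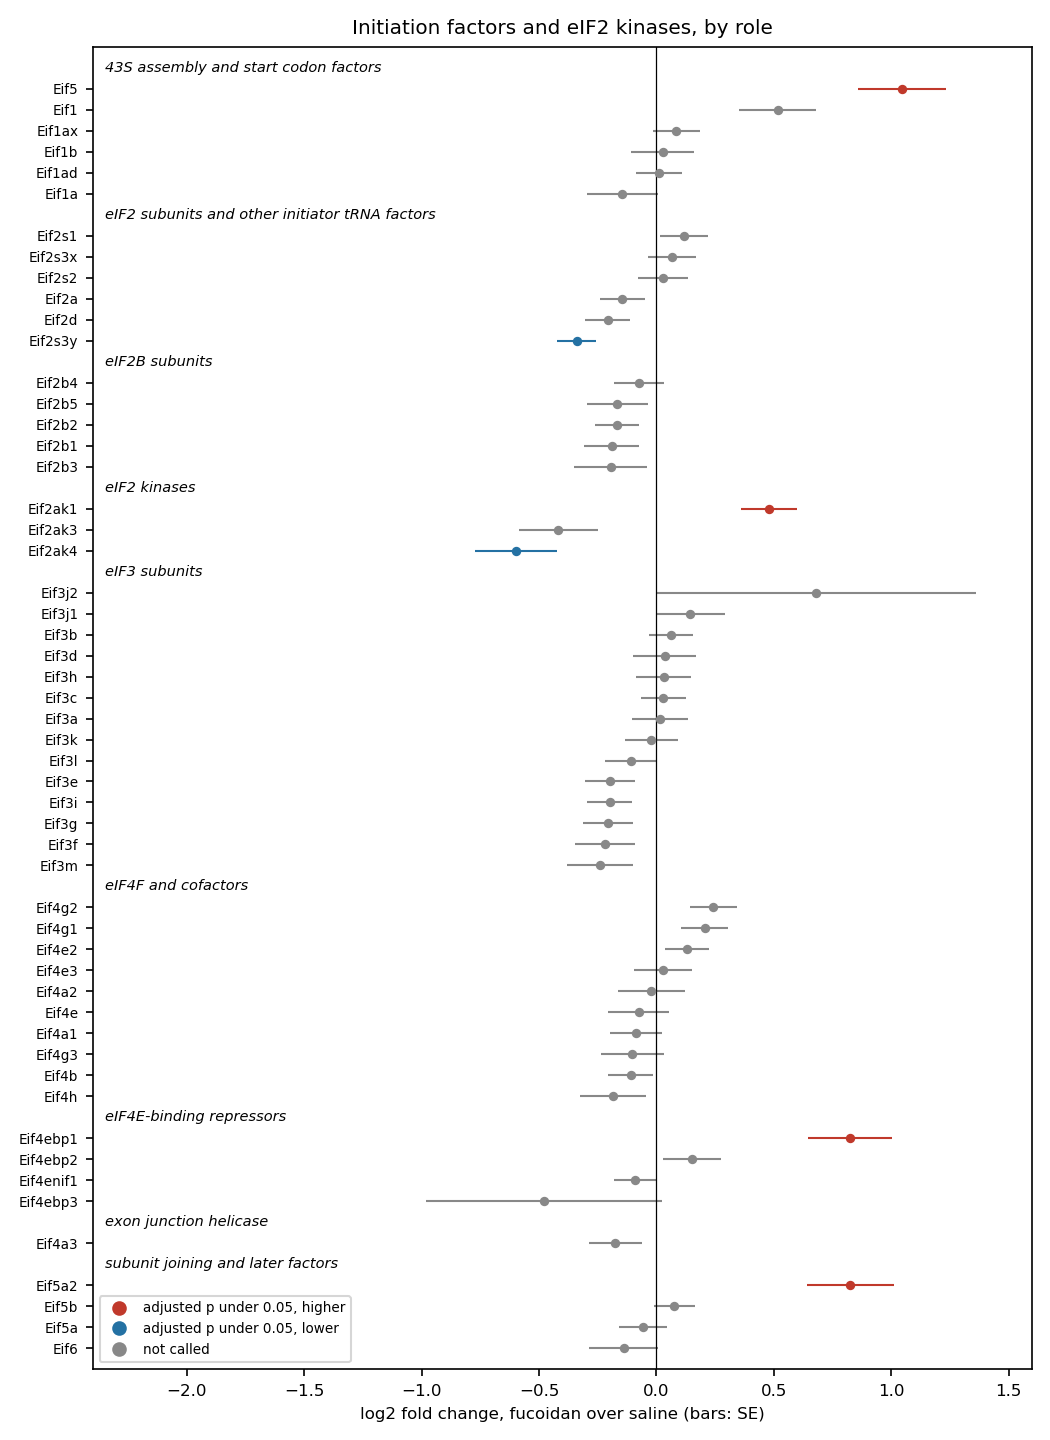
Log2 fold change of fucoidan over saline (x axis) for the 53 tested members, ordered by role from top to bottom, with the SE as bars. Red marks the 4 members called higher and blue the 2 called lower; most of the others lie within 0.25 of 0.

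The factors that assemble on the small subunit and read the start codon held the largest rise. Eif5 (ENSMUSG00000021282, GRCm39 chromosome 12, 111504450 to 111513186), the GTPase-activating factor of eIF2, stood at 623, 725 and 1143 CPM in fucoidan libraries 1 to 3 and at 374, 415, 494, 381 and 345 CPM in saline libraries 1 to 5. All 3 fucoidan libraries lay above all saline libraries, and fucoidan replicate 3 was highest. Its 2.06-fold rise (log2 1.05, SE 0.19, adjusted p = 0.00527) kept its call when any 1 library was left out, with log2 values of 0.75 to 1.22.

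Eif1 (ENSMUSG00000035530, chromosome 11, 100210711 to 100212922), which opposes eIF5 at weak start codons, was the most abundant member per kilobase of listed gene length, at 346 CPM per kilobase. It stood at 847, 696 and 1137 CPM in fucoidan libraries and at 548, 574, 745, 671 and 582 CPM in saline libraries. Fucoidan replicate 2 lay below saline replicate 3, and the change of log2 0.52 (SE 0.16) did not pass (adjusted p = 0.0603). With the replicate number as a block in edgeR it passed (log2 0.50, adjusted p = 0.0327), as it did without fucoidan replicate 2 or saline replicate 3 (adjusted p = 0.0306 and 0.0487), with no filter on low counts (0.0182) and in DESeq2 (0.0200). In the block fit, saline replicates 4 and 5 have no fucoidan partner and do not enter the estimated difference between the groups. Eif1b, the near copy of Eif1, was at log2 0.03 and averaged 29.3 ± 3.66 CPM in fucoidan libraries (SD, n = 3) and 28.8 ± 3.69 CPM in saline libraries (SD, n = 5). Eif1ax and Eif1a, which encode eIF1A, and Eif1ad, which encodes a related protein, were at log2 0.08, -0.15 and 0.01. A further 16 genes of this group, the Eif1ad copies on chromosome 12, had 0 counts in every library.

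Among the eIF2 subunits only the Y-linked gamma gene was called. Eif2s3y (ENSMUSG00000069049, Y chromosome, 1010543 to 1028847) stood at 57.4, 55.2 and 55.6 CPM in fucoidan libraries and at 67.5, 73.3, 71.3, 70.3 and 72.3 CPM in saline libraries. The groups did not overlap, and the libraries within each group lay close together. The log2 change of -0.34 (SE 0.08, adjusted p = 0.0202) was not called with the replicate block in edgeR (adjusted p = 0.0931) nor with no filter on low counts (0.0746), nor when any 1 fucoidan library was left out (0.0590 to 0.0955). Its X-linked counterpart Eif2s3x was at 75.9, 77.4 and 69.2 CPM in fucoidan libraries and 59.7 to 75.9 CPM, with a median of 72.6 CPM, in saline libraries (log2 0.07). Because the 2 genes encode nearly the same protein, reads that could belong to either may have been divided between them. Eif2s1 and Eif2s2, the alpha and beta subunits, were at log2 0.12 and 0.03, and Eif2a and Eif2d, which can bring initiator tRNA without eIF2, at -0.15 and -0.21.

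The 5 eIF2B subunits, which form the exchange factor that recharges eIF2 with GTP, all lay slightly lower with fucoidan and none passed the test. Their log2 values ran from -0.20 for Eif2b3 to -0.07 for Eif2b4, with a lowest adjusted p of 0.270 for Eif2b2. Eif2b2 averaged 37.2 ± 2.60 CPM in fucoidan libraries (SD, n = 3) and 41.8 ± 1.98 CPM in saline libraries (SD, n = 5). With median of ratios factors and with upper quartile factors the medians of all members were -0.04 and -0.11, so differences of this size move with the scaling.

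The eIF2 kinases did not move together. Eif2ak1 (HRI, ENSMUSG00000029613, chromosome 5, 143803543 to 143841069) stood at 101, 102 and 132 CPM in fucoidan libraries and at 85.2, 74.1, 91.4, 76.0 and 73.8 CPM in saline libraries. Every fucoidan library lay above every saline library, and the rise was 1.40-fold (log2 0.48, SE 0.12, adjusted p = 0.0224). The call was not made without fucoidan replicate 3 (log2 0.35, adjusted p = 0.108) or without saline replicate 4 or 5 (adjusted p = 0.0619 and 0.0530).

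Eif2ak4 (GCN2, ENSMUSG00000005102, chromosome 2, 118219099 to 118305715) was lower with fucoidan. It stood at 29.1, 33.1 and 19.7 CPM in fucoidan libraries and at 31.4, 45.0, 44.2, 45.7 and 41.2 CPM in saline libraries, so that saline replicate 1 lay within the fucoidan range. The log2 change was -0.60 (SE 0.17, adjusted p = 0.0437), and it was not called with the replicate block (adjusted p = 0.104), with median of ratios factors (0.0503), or on leaving out fucoidan replicate 1 or 3 or any saline library but replicate 1 (0.0701 to 0.187). Eif2ak3 (PERK) was at 83.8, 105 and 88.0 CPM in fucoidan libraries and at 104, 171, 125, 115 and 102 CPM in saline libraries, where saline replicate 2 was highest. Its log2 change of -0.42 (SE 0.17) did not pass (adjusted p = 0.131), but did with the replicate block (log2 -0.51, adjusted p = 0.0230).

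Per kilobase of listed gene length the order of the kinases differed between the groups. HRI mRNA exceeded PERK mRNA in 3 of 3 fucoidan libraries, with HRI at 17.9 to 23.3 and PERK at 13.9 to 17.5 CPM per kilobase. In saline libraries it did so in 0 of 5, with HRI at no more than 16.1 and PERK at 17.0 to 28.4 CPM per kilobase. GCN2 mRNA was the least abundant of the kinases in every library, at 2.64 to 4.43 CPM per kilobase after fucoidan and 4.21 to 6.12 after saline. This order was noticed after the values were seen and was not tested.

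**Figure D2:**
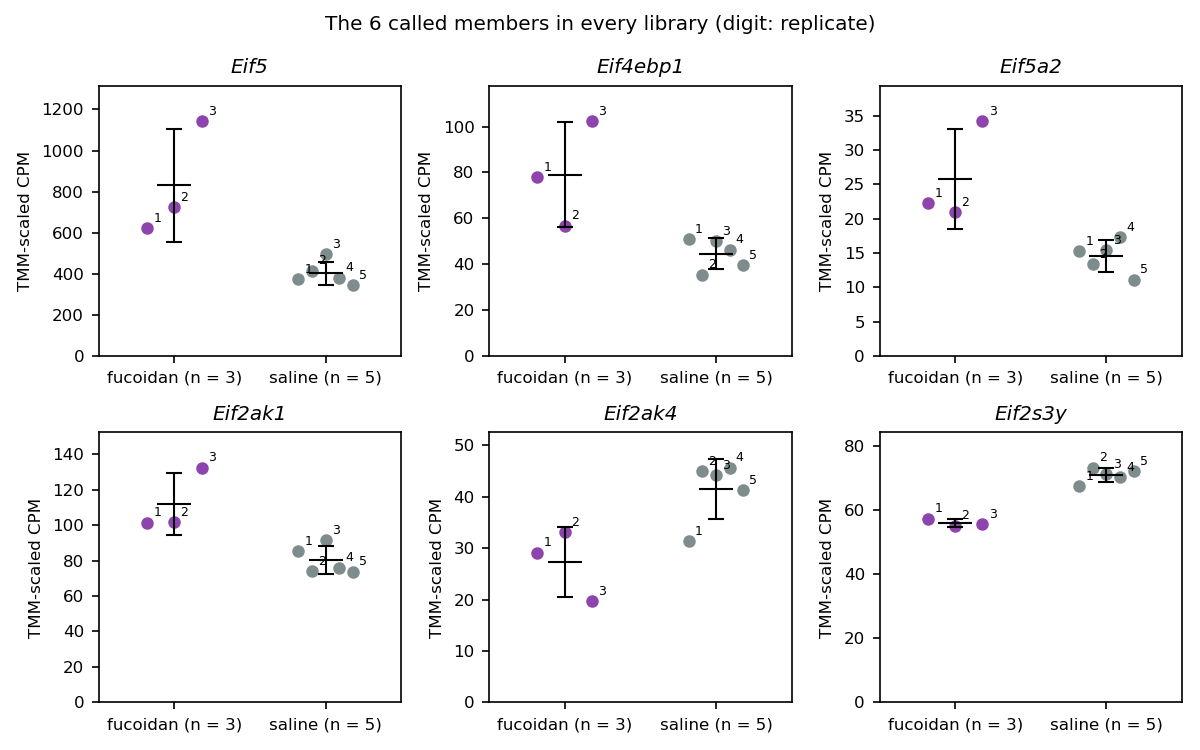
TMM-scaled CPM (y axis) of the 6 called members in each library, with fucoidan (n = 3) left of saline (n = 5), a digit for the replicate, and the mean ± SD in black. Fucoidan replicate 3 is the highest library for Eif5, Eif4ebp1, Eif5a2 and Eif2ak1 and the lowest for Eif2ak4; only Eif2ak4 overlaps between the groups.

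eIF3, the large scaffold that bridges the small subunit and eIF4G, showed no call among its 14 tested genes. Of these 7 had positive and 7 negative log2 values, the median was 0.00, and the lowest adjusted p was 0.199, for Eif3i at log2 -0.20. Eif3i was the 1 subunit gene whose groups did not overlap, at 92.7, 86.4 and 92.3 CPM in fucoidan libraries and 96.8 to 113 CPM in saline libraries. Eif3h was the most abundant per kilobase (193 CPM per kilobase) and was at 300, 292 and 352 CPM in fucoidan libraries and at 278 to 348 CPM, with a median of 298 CPM, in saline libraries. Eif3f, Eif3e and Eif3m, at log2 -0.22, -0.20 and -0.24, overlapped between the groups. The levels of subunits of this complex ranged down to 1.78 CPM per kilobase for Eif3j2, a second gene for the loosely bound subunit encoded also by Eif3j1.

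eIF4F and its cofactors also gave no call. Eif4g2, which encodes a relative of eIF4G that lacks the eIF4E-binding part, stood at 886, 876 and 880 CPM in fucoidan libraries and at 712 to 802 CPM, with a median of 732 CPM, in saline libraries. These ranges did not overlap, but the change of log2 0.24 (SE 0.10) gave an adjusted p of 0.132 in edgeR. DESeq2 and limma-voom called it (adjusted p = 0.0104 and 0.0494). Eif4g1, the main scaffold, was at log2 0.21 (adjusted p = 0.210) and Eif4g3 at -0.10. The helicase genes Eif4a2, the most abundant of this group per kilobase at 102 CPM per kilobase, and Eif4a1 were at log2 -0.02 and -0.09. The processed pseudogene Eif4a-ps4 took 12.7% to 17.9% as many counts as Eif4a1, so reads may be divided between them. Eif4e, the cap-binding protein, averaged 42.5 ± 4.95 CPM in fucoidan libraries (SD, n = 3) and 44.8 ± 6.34 CPM in saline libraries (SD, n = 5). Its relatives Eif4e2 and Eif4e3 were at log2 0.13 and 0.03.

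Of the repressors that bind eIF4E, Eif4ebp1 rose. Eif4ebp1 (ENSMUSG00000031490, chromosome 8, 27750357 to 27766702), whose protein blocks eIF4E until mTOR phosphorylates it, stood at 77.9, 56.8 and 102 CPM in fucoidan libraries and at 50.9, 35.5, 50.2, 46.4 and 39.7 CPM in saline libraries. The groups did not overlap, with fucoidan replicate 2 nearest to the saline range. The rise was 1.77-fold (log2 0.83, SE 0.18, adjusted p = 0.0113), and 0.61 on the log2 scale without fucoidan replicate 3 (adjusted p = 0.0558).

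Eif4ebp2, the most abundant of these repressors in blood cells here at 58.9 CPM per kilobase, gave no call. It was at 371, 362 and 357 CPM in fucoidan libraries and at 345, 253, 349, 342 and 347 CPM in saline libraries, where replicate 2 was low. Its log2 change of 0.15 gave an adjusted p of 0.461. Eif4enif1, which carries eIF4E into the nucleus, was at log2 -0.09. Eif4ebp3 had 4 to 19 counts per library, and its log2 value of -0.48 (SE 0.50) is not distinguishable from 0 at this depth. Eif4a3, a helicase of the exon junction complex that shares its name with eIF4A, was at log2 -0.18 (adjusted p = 0.346).

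Among the factors of subunit joining and later steps, Eif5a2 rose and the others did not pass the test. Eif5a2 (ENSMUSG00000050192, chromosome 3, 28835425 to 28852995) encodes the second isoform of the hypusine-containing factor eIF5A, which helps ribosomes past difficult peptide bonds. It stood at 22.3, 21.0 and 34.2 CPM in fucoidan libraries and at 15.3, 13.4, 15.4, 17.3 and 11.1 CPM in saline libraries, with no overlap. The rise was 1.77-fold (log2 0.83, SE 0.19, adjusted p = 0.0136), and log2 0.59 without fucoidan replicate 3 (adjusted p = 0.0686). Eif5a, the common isoform, had 129 CPM per kilobase against 3.73 for Eif5a2 over all libraries, and was at log2 -0.06. Eif5b, which joins the ribosomal subunits, and Eif6, which keeps them apart, were at log2 0.08 and -0.14.

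Ratios of related members within a library do not depend on how libraries were scaled, and 5 of 12 compared pairs did not overlap between the groups. The share over ratios of other genes was not taken, and of all single genes 22.6% did not overlap. The pairs were chosen with earlier results known. Each of the 5 except Eif4g3 to Eif4g1 holds a called member, so these ratios are not independent of the calls above. The log2 ratio of Eif2ak1 to Eif2ak4 was 1.80, 1.62 and 2.75 in fucoidan libraries and 0.72 to 1.44, with a median of 0.84, in saline libraries, a difference of 1.10. That of Eif5a2 to Eif5a was -3.84, -3.73 and -3.11 in fucoidan libraries and -4.78 to -4.04 in saline libraries, a difference of 0.87. That of Eif4ebp1 to Eif4ebp2 was -2.25, -2.67 and -1.80 in fucoidan libraries and -3.13 to -2.76 in saline libraries, a difference of 0.64.

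The ratio of Eif2s3y to Eif2s3x was lower, with a difference of -0.41, at -0.40, -0.49 and -0.32 in fucoidan libraries and -0.11 to 0.30 in saline libraries. That of Eif4g3 to Eif4g1 differed by -0.29, at -1.17 to -0.88 in fucoidan libraries and -0.88 to -0.45 in saline libraries, where the nearest libraries almost met. Each of the 5 had an exact two-sided permutation p of 0.0357, the smallest that 56 arrangements give, and an adjusted p of 0.0857 over the 12 pairs. At that smallest p a pair can pass the adjustment only if most of the 12 pairs share it. That 0 of 12 passed is therefore set by the number of libraries and says nothing about any single pair. The other 7 pairs, among them Eif4a2 to Eif4a1 (difference 0.07) and Eif4e2 to Eif4e (0.21), overlapped.

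**Figure D3:**
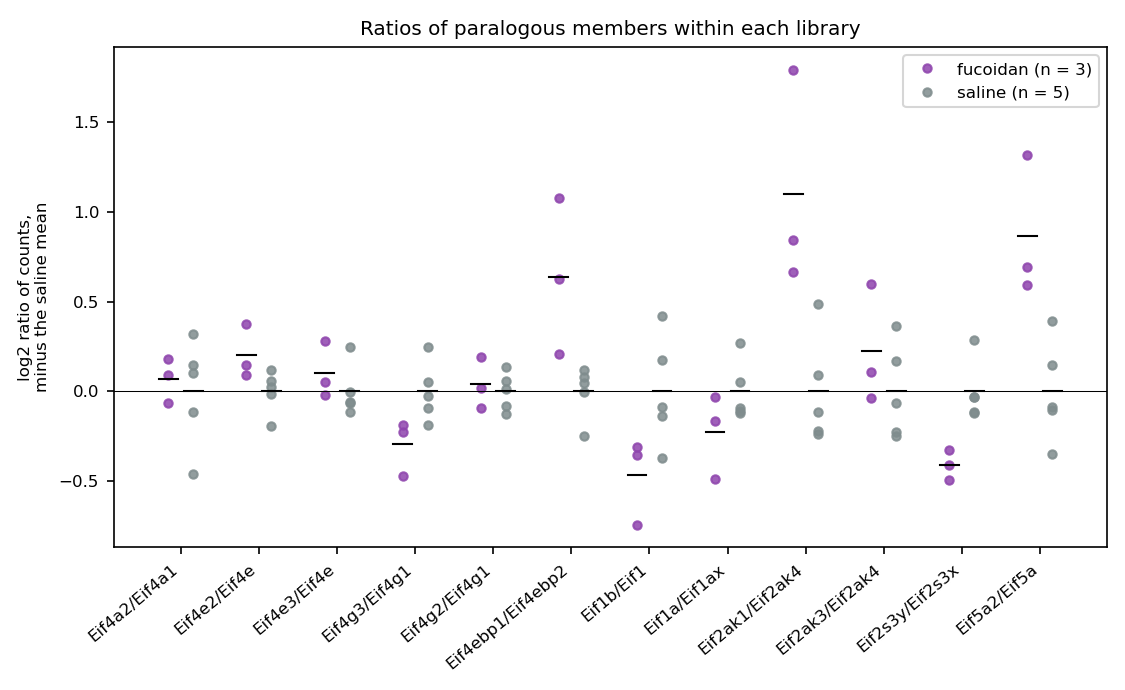
Log2 ratio of counts of 2 related members within each library, minus the saline mean of that ratio (y axis), for 12 pairs, with fucoidan (n = 3, purple) left of saline (n = 5, grey) and lines at the group means. The ratios Eif2ak1/Eif2ak4, Eif5a2/Eif5a and Eif4ebp1/Eif4ebp2 lie higher and Eif2s3y/Eif2s3x and Eif4g3/Eif4g1 lower in all fucoidan libraries.

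Eif1, which was not called, and the 4 rising members were set beside the haemoglobin share of each library. Fucoidan replicate 3, with 24.1% haemoglobin counts, was the highest library for Eif5, Eif1, Eif4ebp1, Eif5a2 and Eif2ak1, and saline replicate 3, the highest of its group at 8.48%, was the highest saline library for Eif5, Eif1 and Eif2ak1. For Eif2ak1 the saline libraries stood in the same order by both measures: 73.8, 74.1, 76.0, 85.2 and 91.4 CPM at 3.51%, 4.55%, 4.89%, 5.60% and 8.48% haemoglobin. How far this match comes from the scaling was not tested. CPM is divided by the TMM factor, which falls over all libraries as the share rises, from 1.17 to 0.697. The raw Eif2ak1 counts, not adjusted for library totals, were 1405, 1317, 1315, 1507 and 1474 by rising share and did not keep the order. The CPM of the other 4 genes did not keep the order of the share in saline libraries either. Eif5a2 was highest in saline replicate 4 and Eif4ebp1 in saline replicate 1, Eif1 was lowest (548 CPM) in saline replicate 1, which had the second-highest saline share, and Eif5 was lower there (374 CPM) than in saline replicate 2 (415 CPM). Among fucoidan libraries, Eif5 (725 and 623 CPM) and, slightly, Eif2ak1 (101.9 and 101.5 CPM) were higher in replicate 2 than in replicate 1, which had the larger share. The share is higher in every fucoidan library than in every saline library, so it cannot be told apart from treatment, and the part of red cell RNA, or of the other marker lists above, in these changes was not tested. With the haemoglobin genes removed before scaling, Eif5, Eif4ebp1, Eif5a2 and Eif2ak1 were at log2 1.05, 0.83, 0.83 and 0.48, and the same 6 members were called.

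**Figure D4:**
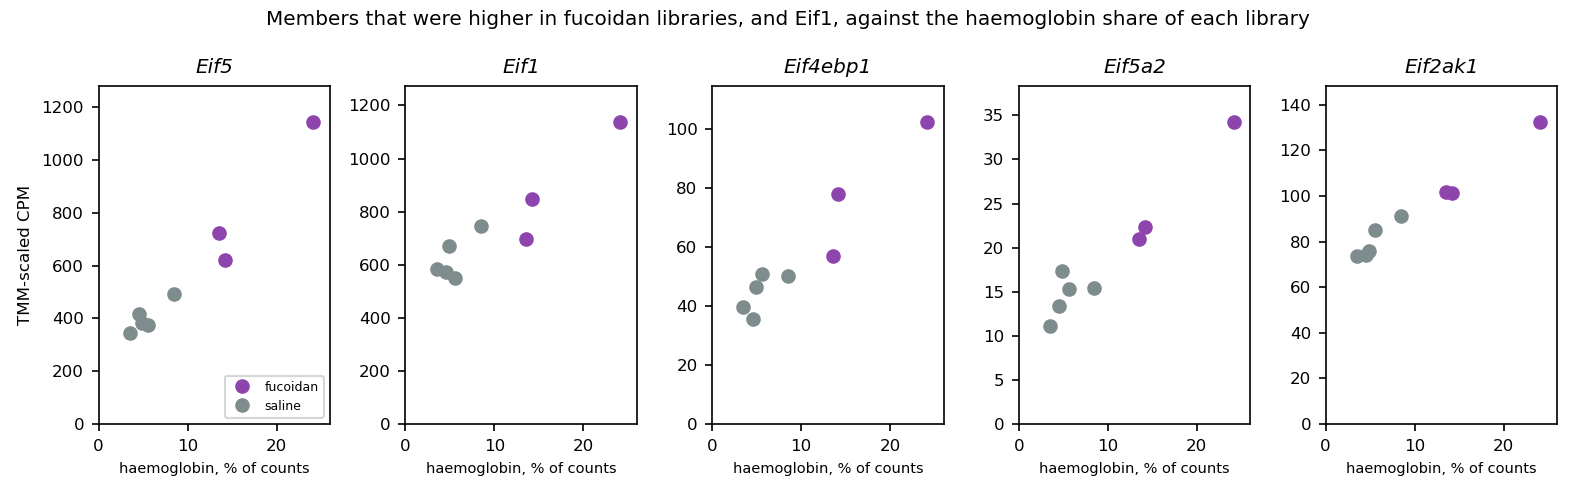
TMM-scaled CPM (y axis) of Eif5, Eif1, Eif4ebp1, Eif5a2 and Eif2ak1 against the share of haemoglobin transcripts in all counts (x axis, percent), 1 point per library, purple for fucoidan and grey for saline. The 3 fucoidan libraries lie at 13.6% or more and the 5 saline libraries at 8.48% or less, with fucoidan replicate 3 at the upper right in each panel. CPM is divided by TMM factors that fall as the share rises.

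Downstream of eIF2 phosphorylation, the integrated stress response raises ATF4 and its targets, and a few of these differed between the groups. Of 34 tested genes of that list 6 rose (17.6%, against 9.11% of all genes) and 2 fell (5.88%, against 4.65%), with a median log2 of -0.03. Asns, asparagine synthetase, stood at 4.71, 2.75 and 9.35 CPM in fucoidan libraries and 0.68 to 1.44 CPM in saline libraries (log2 2.30, SE 0.39, adjusted p = 0.00442). Atf5, a factor translated when eIF2 is phosphorylated, stood at 16.8, 11.8 and 28.4 CPM in fucoidan libraries and 6.70 to 8.44 CPM in saline libraries (log2 1.29, adjusted p = 0.00543). Mthfd2, a mitochondrial folate enzyme, and Slc7a5, a transporter of large neutral amino acids, rose by log2 1.11 and 1.71, and Cars and Aldh18a1 by 0.48 and 0.38. Fucoidan replicate 3 was highest for the first 4 of these, as for the rising initiation factors.

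Other genes of the list gave no call or were lower. Atf4 itself was at log2 -0.16 (adjusted p = 0.568), Ddit3, which encodes CHOP, at -0.24 and Trib3 at -0.15. Ppp1r15a, which encodes the inducible GADD34 that directs a phosphatase to eIF2, was lower, at 228, 201 and 163 CPM in fucoidan libraries and 199, 462, 408, 424 and 362 CPM in saline libraries (log2 -0.91, SE 0.24, adjusted p = 0.0280). Atf3 was lower by a similar pattern (log2 -1.26, adjusted p = 0.0301). In both genes saline replicate 1 lay within the fucoidan range. With the replicate block, and also with no filter on low counts, 4 genes of the list rose and 0 fell by edgeR's test. None fell either (0 of the list) without fucoidan replicate 2 or 3 or saline replicate 3, 4 or 5, 1 fell and 4 rose without fucoidan replicate 1, and 9 rose without saline replicate 1. Ppp1r15b, the constitutive partner of that phosphatase, was at log2 -0.03.

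The list of other genes of translation had 26 tested genes, 3 called higher (11.5%, against 9.11% of all genes) and 2 called lower (7.69%, against 4.65%), and its median log2 value was -0.09. Pabpc1, the main cytoplasmic poly(A)-binding protein, stood at 1993, 1773 and 3199 CPM in fucoidan libraries and 1261 to 1583 CPM in saline libraries (log2 0.74, SE 0.18, adjusted p = 0.0192). Its relative Pabpc4 and its inhibitor Paip2 rose by log2 0.67 and 0.61. Paip1 and Paip2b, which also bind this protein, were at log2 0.18 and 0.05 without a call, while Denr, a factor of reinitiation, and the helicase Ddx3x fell by 0.38 and 0.50 (log2 -0.38 and -0.50, adjusted p = 0.0295 and 0.0432). With the replicate block, with median of ratios factors and with no filter on low counts, 1 gene of the list fell. Without fucoidan replicate 3, 0 rose and 1 fell, and without saline replicate 4, 1 rose and 0 fell. On leaving out another library, 0 fell without fucoidan replicate 1 or 2, 1 without saline replicate 3, and 2 rose and 1 fell without saline replicate 5. The elongation factors Eef1a1 and Eef2 were at log2 -0.17 and -0.10.

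Of 20 kinases and inhibitors that control translation, 1 rose (5%, against 9.11% of all genes) and 0 fell (0%, against 4.65%) by edgeR's test. This was Pdcd4, an inhibitor of eIF4A, at 252, 257 and 249 CPM in fucoidan libraries and 151 to 202 CPM in saline libraries (log2 0.55, SE 0.13, adjusted p = 0.0150). Its call was not made without fucoidan replicate 2 or 3, and 1 gene of the list fell without saline replicate 5. Mtor, the kinase upstream of the eIF4E-binding repressors, was at log2 -0.01 and averaged 54.7 CPM in fucoidan libraries and 55.2 CPM in saline libraries. Mknk1 and Mknk2, which phosphorylate eIF4E, were at log2 0.14 and 0.22 without a call.

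**Figure D5:**
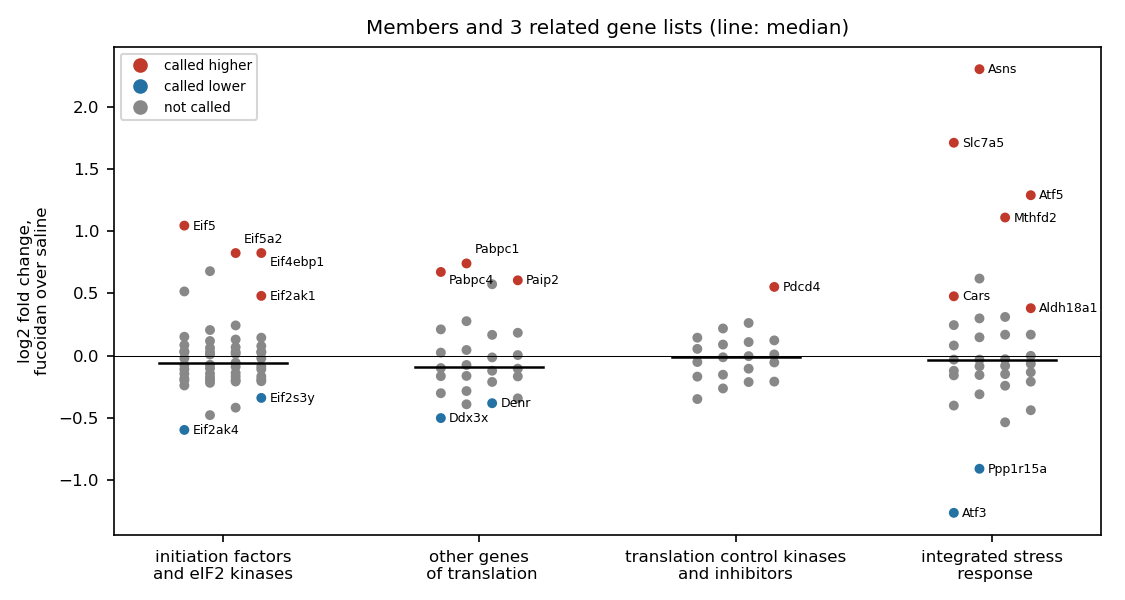
Log2 fold change of fucoidan over saline (y axis) for the 53 tested members and 3 related gene lists, 1 point per gene, with the median as a line and the called genes named. The medians lie between -0.09 and -0.01, and the integrated stress response holds the widest spread, from -1.26 for Atf3 to 2.30 for Asns.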

How the data were processed

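RNA from mononuclear cells was measured in 8 libraries, 3 fucoidan and 5 saline, grouped by title; where the protocol of a fucoidan sample names saline, its title was followed. The deposited table holds raw counts per gene made by the authors, with symbols, lengths and GRCm39 coordinates. Per the submitters' processing notes, cutadapt 4.0, Trimmomatic 0.39 and HISAT2 2.2.1 were used. Counting program, annotation release and strandedness (not given in the sources used here) decide how reads of overlapping genes and near copies were divided. The deposited gene length sets levels of different genes on a per-kilobase scale.

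All genes were fitted together in edgeR 4.0.16 (R 4.3.3): filterByExpr, TMM factors, the quasi-likelihood test in robust mode and Benjamini-Hochberg adjustment over 14723 genes. Fold changes are fucoidan over saline, and the SE was taken from the log2 value and its F statistic (size over the root of F). The procedure was run on simulated counts in which the changed genes rose or fell at random. In the data more genes were called higher than lower and the haemoglobin share differed between the groups. The simulation does not cover such shifts. Member ratios were put to an exact permutation test, two-sided (scipy 1.17.1). Alternatives were other scaling factors, haemoglobin genes removed, DESeq2 1.42.0, limma-voom (limma 3.58.1), other filters, a fit without robust mode, the replicate block and leaving out each library. Lists of related genes were recomputed under them after the data were seen.

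No library duplicated another. With group means removed, fucoidan and saline libraries of the same number correlated at 0.177, 0.233 and 0.144, and those of different numbers at -0.261 to 0.144, with fucoidan 2 and saline 5 as high as the lowest same-number pair. The replicate numbers were taken to pair the libraries only in the replicate block, an alternative to the main fit, which used the group alone. Each same-number value exceeded 0.1, but so did that of fucoidan 2 and saline 5. This level therefore does not separate same-number pairs from the others, and the pairing is a hint from the data alone. Promoter windows come from RefSeq for GRCm38.p6, another build than the table's.

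The members, gene lists, pairs and alternatives were chosen with earlier results of these data known. Named are called members, all eIF2 kinases and eIF4E-binding repressors, the most abundant member per kilobase and the lowest p of each role, members of the pairs, members kept out by the filter, and up to 4 called genes per list; other values were chosen after they were seen. Members kept out by the filter were 18 with 0 counts in every library and Eif4a3l2 with 1 count in all.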

Additional observations from a re-analysis of the deposited data

Results flagged for a closer look

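In 6 of 57 sets of saline values, 1 library lay far from the other 4 relative to their range, where chance gives about 1 in 20. Saline replicate 2 was low for Eif4ebp2 (253 CPM, next 342), Eif2s3x (59.7 CPM, next 72.4) and Eif1ax (29.2 CPM, next 34.4), of which Eif2s3x and Eif1ax are X-linked. It also had the lowest sum of all members (7505 CPM) and was the lowest saline library for many autosomal members, such as Eif3b, Eif4e and Eif6. Saline replicate 4 was low for Eif3j1 (25.4 CPM, next 33.6) and high for Eif4enif1 (85.9 CPM, next 76.6). Saline replicate 1 was high for Eif2b2 (45.3 CPM, next 41.4). None of these members was called in edgeR, and leaving out the library in question left each without a call.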

How the results depend on the processing

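The number of members called higher was 1 to 5 and of those called lower 0 to 2 when each library was left out in turn; without fucoidan replicate 3 only Eif5 was called. All genes called numbered 928 (without fucoidan replicate 3) to 2224 over the same fits. The members lower numbered 1 with median of ratios factors, 1 with no filter on low counts and 1 with the replicate block, where Eif2ak3 took the place of Eif2s3y and Eif2ak4; Eif1 was added, and the block changed no other call among the named members. With the replicate block, where saline replicates 4 and 5 have no fucoidan partner and do not enter the estimated difference, 1561 genes were called. With upper quartile factors the split of all calls was 1241 higher and 989 lower, against 1341 and 684. The sign of a called member never changed in these alternatives. Uncalled members near 0 changed sign: Eif1b, Eif3h and Eif4e3 were at log2 -0.0232, -0.0186 and -0.0196 with upper quartile factors, Eif4e at 0.0148 with limma-voom, and Eif3h, Eif4a2 and Eif4e3 at -0.0186, 0.0591 and -0.0466 with the replicate block. With 1 library left out, Eif1b ran from -0.0315 to 0.128, Eif3h from -0.0478 to 0.0836, Eif4a2 from -0.113 to 0.0969, Eif4e from -0.167 to 0.0106 and Eif4e3 from -0.0346 to 0.0943. The ratio Eif4a2/Eif4a1 differed by -0.0148 with group medians and by -0.0474 to 0.147 with a library left out, and Eif4g2/Eif4g1 by -0.0351 to 0.108. The cause of these changes was not tested. With 3 fucoidan libraries, 1 of which stood apart, small differences in members of low count could not be resolved.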

Other observations

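Other Y-linked genes were looked up after the fall of Eif2s3y was seen. Kdm5d averaged 40.8 ± 3.52 CPM in fucoidan libraries (SD, n = 3) and 46.9 ± 2.60 CPM in saline libraries (SD, n = 5), at log2 -0.20 without a call. Ddx3y and Uty were at log2 0.14 and -0.02, also without a call, whereas the X-linked relative of Ddx3y, Ddx3x, fell.

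Eif3j2 counts fell into 2 levels that cut across the groups. It had 18, 77 and 88 counts in fucoidan libraries 1 to 3 and 100, 16, 14, 100 and 73 counts in saline libraries 1 to 5, while Eif3j1 had 291 to 639 and 439 to 667 counts. No value lay between 18 and 73 counts.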
